A study of Arabidopsis thaliana with 24 samples.

Results

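Seedlings that had received Heatin at 22°C were compared directly with seedlings that had received only the solvent at 27°C, at the age of 7 days, to ask which transcripts the compound alone brought to the level of warm-grown seedlings and which it did not. Heatin is a small molecule that was selected because it lengthens the hypocotyl, the embryonic stem. The samples were taken by their labels: 3 of Heatin at 22°C and 3 of mock at 27°C, so 6 of the 24 samples of the series, and no sample was chosen by a measured value. The Heatin samples were wild-type Col-0 seedlings on medium with 8.5 µM Heatin at 22°C. The mock samples were wild-type Col-0 seedlings at 27°C without Heatin. Medium of both groups held 0.1% DMSO, both grew in short days of 8 h light without sucrose, and both were collected when the lights came on. Mock seedlings at 22°C of the same age (n = 3) gave the starting level, and Heatin seedlings at 27°C (n = 3) entered the fit for the spread between replicates only. Each sample combined RNA of 3 batches harvested at different times, so the p-values measure the spread between such pools. Whole seedlings were used, and in such bulk samples fewer cells of a type cannot be told apart from less RNA per cell.

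Warmth below the heat stress range lengthens the Arabidopsis hypocotyl in a response called thermomorphogenesis. The transcription factor PIF4 is its main known driver and raises auxin synthesis genes such as YUC8, and auxin in turn induces Aux/IAA, GH3 and SAUR genes and enzymes that loosen the cell wall. Warm growth is also known to change clock, heat shock, photosynthesis and defence transcripts. Nitrilases of the NIT1 subfamily can supply auxin from indole-3-acetonitrile, a product of the same tryptophan branch that feeds indole glucosinolates.

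Between 19705950 and 33273619 reads fell on genes in the Heatin samples at 22°C, between 28868332 and 55503049 in mock at 27°C and between 21906850 and 29804170 in mock at 22°C. Values are normalized reads, that is reads per gene divided by 1 depth factor per sample. Shoot and root markers were found in both groups. The 5 shoot genes summed to 1852097 to 2045781 normalized reads with Heatin at 22°C and to 1142614 to 1318679 in mock at 27°C. The 5 root genes summed to 106268 to 114814 and to 71584 to 84001, with no gene at 0 in either group. The 4 flower genes had been picked as ones that a seedling should lack, but none was at 0 either. They summed to 107 to 151 in Heatin at 22°C and 604 to 639.9 in mock at 27°C, so this part of the marker check was not met. The 15 seed storage and late embryogenesis genes summed to 171, 2096 and 94.1 in the Heatin replicates and 655, 625 and 1081 in mock at 27°C, so Heatin replicate 2 stood apart. These sums moved with the groups compared, and their part in the differences below was not tested.

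Heatin seedlings at 22°C differed from mock seedlings at 27°C in most of the transcriptome. Of 23252 genes whose mean over the 12 samples of this age reached 1 normalized read, 14257 (61.3%) were called, 7544 (32.4%) higher and 6713 (28.9%) lower in Heatin at 22°C. Which direction was in excess depended on the scaling, with 6385 higher and 7938 lower when scaled to total reads. A gene was called at an adjusted p below 0.1 (limma on log2(normalized reads + 1), Benjamini-Hochberg over all genes tested). A log2 difference below is on that scale, Heatin at 22°C minus mock at 27°C unless said otherwise, and for genes at few reads it is smaller than the change itself. The called difference was over 2-fold in 2687 genes (11.6%), of which 1546 (6.65%) were higher and 1141 (4.91%) lower. Replicates of the groups did not overlap in 14019 genes (60.3%). The median size of the log2 difference was 0.35, with 5% of genes below -1.06 and 5% above 1.17.

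**Figure D1:**
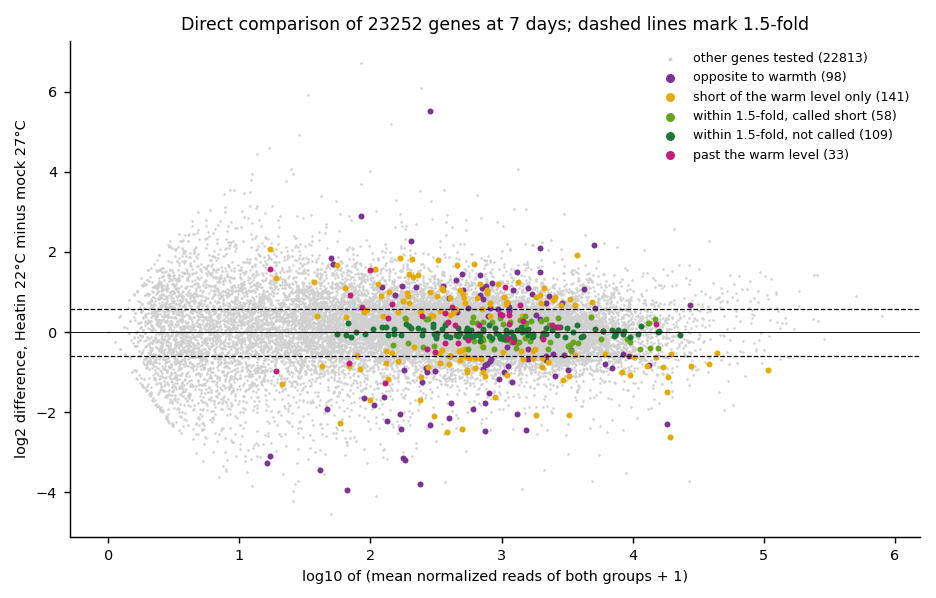
Each point is 1 of 23252 genes, with its mean level on the x axis (log10 of normalized reads + 1) and its log2 difference between Heatin at 22°C and mock at 27°C on the y axis, coloured by what Heatin and warmth each did against mock at 22°C; dashed lines mark 1.5-fold. The genes that Heatin called lie mostly among the others, with the 181 brought to the warm level inside the dashed lines by definition and 33 past it.

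The contrast of Heatin with mock at 22°C was much smaller. It called 574 genes (2.47%), 323 higher (1.39%) and 251 lower (1.08%), with a median size of the log2 difference of 0.10 over all genes, and the change was over 2-fold in 88 genes (0.378%), 50 higher (0.215%) and 38 lower (0.163%). Warmth in mock seedlings called 14360 genes (61.8%), 6699 higher (28.8%) and 7661 lower (32.9%), with a median size of 0.36. These contrasts share samples with the direct one, so the counts that combine them are descriptions without a test of their own. Of 2892 genes that warmth changed by over 2-fold (12.4%; 1204 higher, 5.18%, and 1688 lower, 7.26%), 2535 (87.7%) were called in the direct comparison, and 2092 (72.3%) by over 2-fold. For 354 others the direct comparison made no call, but the 95% interval of the difference reached beyond 1.5-fold. An interval within 1.5-fold either way, the measure of a like level used here, was found for 6 of the 2892: AT1G27020, AT5G63820, BGAL7, AT5G51790 and MLP28, which both treatments raised, and AT1G65490, which both lowered. The direct comparison still called 3 of these 6 as short of the warm level: BGAL7, AT5G51790 and MLP28 (limma adjusted p = 0.00481, 0.0782 and 4.9e-06). Over all genes tested, 10718 (46.1%) had an interval within 1.5-fold.

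Of the 574 genes that Heatin called at 22°C, 470 were also called for warmth, 372 in the same direction and 98 in the opposite one. The 372 fell into overlapping classes. Heatin brought 181 genes (0.778% of all tested, 48.7% of the 372) to the warm level, meaning that the 95% interval of the direct difference lay within 1.5-fold. Over all genes tested, 46.1% had such an interval. The class did not ask that mock at 22°C lay outside 1.5-fold of the warm level, so members could be near it without Heatin. Warmth had changed 6 of the 181 by over 2-fold. Of the 181, 105 were raised and 76 lowered. The direct comparison made no call for 109 of these, and called 58 as short of the warm level and 14 as past it by a small margin. In all, 199 genes (0.856%) were called short of the warm level, 103 raised and 96 lowered, and 33 (0.142%) past it, 22 raised and 11 lowered. Neither a call nor a narrow interval was reached for 31. Of the 104 genes that Heatin called and warmth did not, 99 were called in the direct comparison.

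Single libraries moved these counts. Without mock at 22°C replicate 2, Heatin called 237 genes, of which 70 were brought to the warm level, 83 were short of it and 21 past it, and 36 were opposite to warmth. Without mock at 22°C replicate 3 the Heatin, brought, short and opposite counts were 300, 89, 108 and 43, and without Heatin replicate 1 they were 282, 89, 92 and 41. Leaving out Heatin replicate 2 gave 114 brought and 107 short, and leaving out Heatin replicate 3 gave 373 Heatin calls, 114 short and 65 opposite. Without mock at 22°C replicate 1, 63 genes were opposite, and without mock at 27°C replicate 2 or replicate 3, 21 were past the warm level. The number of direct calls stayed between 13138 and 14230 whichever of the 9 replicates was left out.

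Among genes brought to the warm level from below, AT1G27020 (chr1:9378404-9380790 of TAIR10.1, annotated as a plant protein without a named function) had the smallest direct difference of the 12 named here. It had 575, 562 and 549.9 normalized reads with Heatin at 22°C, 579.9, 569.8 and 525 in mock at 27°C and 273, 253 and 237 in mock at 22°C. Heatin at 22°C and mock at 27°C overlapped, and every one of these samples was above every mock sample at 22°C. The log2 difference was 0.01 with a 95% interval of -0.16 to 0.18, against a Heatin effect of 1.14 and a warmth effect of 1.13. It stayed in the class in 23 of 23 alternative settings although the sign of so small a difference changed under some. AT1G78450, a SOUL heme-binding family gene, had 322, 384 and 395 normalized reads with Heatin at 22°C, 401, 347 and 421 in mock at 27°C and 221, 204 and 182 in mock at 22°C. Again Heatin and warm-grown samples overlapped above the mock samples at 22°C. Its log2 difference was -0.09 (-0.31 to 0.14), and the class held in 22 of 23 settings. BGAL7, a beta-galactosidase of the cell wall family, had 203, 223 and 232 normalized reads with Heatin at 22°C, 263, 297 and 288 in mock at 27°C and 94.1, 111 and 108 in mock at 22°C. Here Heatin raised the starting level but all Heatin samples stayed below the warm-grown ones, so that it was inside 1.5-fold and also called short. The log2 difference of BGAL7 was -0.36 (SE 0.10, limma adjusted p = 0.00481). It was called short in 23 of 23 settings but stayed inside 1.5-fold in 12.

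AT5G51790, which encodes a basic helix-loop-helix DNA-binding protein, had 156, 171 and 192 normalized reads with Heatin at 22°C, 244, 185 and 203 in mock at 27°C and 88.7, 102 and 87.6 in mock at 22°C. Its log2 difference of -0.28 (SE 0.13, limma adjusted p = 0.0782) was a call that was lost without Heatin replicate 1 or replicate 2 and without mock at 27°C replicate 1 or replicate 3, with limma adjusted p-values of 0.111 to 0.318. It stayed within 1.5-fold as a gene brought to the warm level in 15 of 23 settings. AT2G23680, of the WCOR413 cold acclimation family, had log2 differences of 0.14 from the warm level (-0.26 to 0.53) and 0.83 from mock at 22°C. AT5G63820, of unknown function, had log2 differences of -0.04 (-0.57 to 0.48) and 1.19 in the same order. These lower-level genes kept their class in 16 and 9 of 23 settings. MLP28, a major latex protein-like gene, had a log2 difference of -0.42 (SE 0.05, limma adjusted p = 4.9e-06) with a Heatin effect of 0.73 and a warmth effect of 1.16. It was inside 1.5-fold and also called short.

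The genes brought down to the warm level included GL2, the homeobox factor that keeps root epidermal cells hairless and promotes leaf hairs. GL2 had 382, 393 and 429 normalized reads with Heatin at 22°C, 325, 337 and 375 in mock at 27°C and 693, 682 and 626 in mock at 22°C. All Heatin samples lay between the warm-grown samples and the mock samples at 22°C, close to the former. The log2 difference was 0.21 (SE 0.10, limma adjusted p = 0.0805), with an interval of 0.00 to 0.43. The class held in 23 of 23 settings, while the small direct call was lost in 11 of them, among them those without Heatin replicate 2 or replicate 3 and without mock at 27°C replicate 1 or replicate 2. FAR4, a fatty acid reductase that supplies alcohols for suberin, had 271, 232 and 257 normalized reads with Heatin at 22°C, 233, 261 and 241 in mock at 27°C and 407, 395 and 412 in mock at 22°C. Heatin and warm-grown samples overlapped below the mock samples at 22°C, with a log2 difference of 0.05 (-0.18 to 0.27), and the class held in 22 of 23 settings.

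DR4, named for being repressed by drought, had log2 differences of 0.17 from the warm level (-0.17 to 0.51) and -0.72 from mock at 22°C. The uncharacterized AT1G65490 had 287, 351 and 322 normalized reads with Heatin at 22°C, 285, 247 and 309.9 in mock at 27°C and 544, 593 and 623 in mock at 22°C. Its log2 difference of 0.19 (-0.04 to 0.42, limma adjusted p = 0.142) became a call without Heatin replicate 1 or without mock at 27°C replicate 3, at limma adjusted p-values of 0.0656 and 0.0696. The non-coding RNA gene AT3G27884 had a log2 difference of -0.08 (-0.49 to 0.33). AT5G37990, a methyltransferase family gene, was within 1.5-fold and slightly past the warm level at a log2 difference of -0.27 (SE 0.11, limma adjusted p = 0.0439), a call that was lost without Heatin replicate 1 (0.149) or without mock at 27°C replicate 2 (0.235). The class brought to the warm level held in 19 of 23 settings for DR4, 22 for AT1G65490, 14 for AT3G27884 and 20 for AT5G37990.

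**Figure D2:**
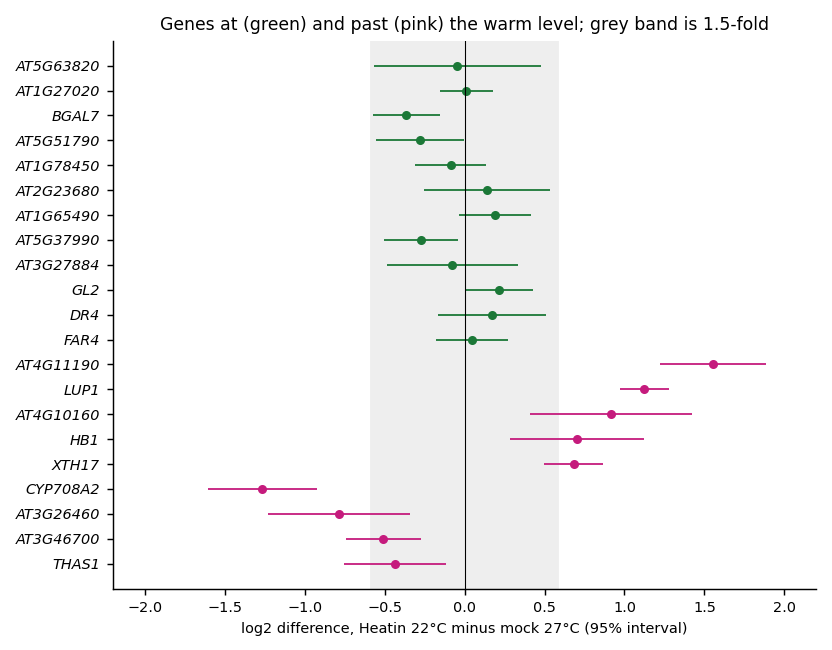
Log2 difference between Heatin at 22°C and mock at 27°C (x axis) with its 95% interval for 12 genes brought to the warm level (green) and 9 genes past it (pink; AT5G37990, in both classes, is green), n = 3 per group; the grey band is 1.5-fold either way. The green intervals lie inside the band by definition, AT1G27020 sits at 0.01, and the pink genes run from -1.26 (CYP708A2) to 1.55 (AT4G11190).

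Heatin carried 33 genes past the warm level, and AT4G11190, a dirigent-like gene of the family that guides the coupling of phenolic radicals, had the largest direct difference of those that averaged 50 or more normalized reads in mock or Heatin at 22°C. It had 143, 134 and 161 normalized reads with Heatin at 22°C, 50.5, 52.9 and 44.0 in mock at 27°C and 35.5, 34.0 and 33.0 in mock at 22°C. No Heatin sample overlapped either mock group, while the mock groups at 27°C and 22°C lay near each other. The log2 difference was 1.55 (SE 0.15, limma adjusted p = 3.9e-07), or 2.94-fold, with a Heatin effect of 2.06 and a warmth effect of 0.51. XTH17, a xyloglucan endotransglucosylase/hydrolase that remodels the cell wall, had 1591, 1670.5 and 1844 normalized reads with Heatin at 22°C, 1105, 991 and 1082 in mock at 27°C and 774, 710.0 and 802 in mock at 22°C. Its Heatin samples were again above all others, at a log2 difference of 0.68 (SE 0.09, limma adjusted p = 5.8e-06). HB1, the class 1 hemoglobin that scavenges nitric oxide, had a log2 difference of 0.70 (SE 0.20, limma adjusted p = 0.00668), and AT4G10160, a RING/U-box gene, had a log2 difference of 0.91 (SE 0.24, limma adjusted p = 0.00400). The class held in 23 of 23 alternative settings for AT4G11190 and 23 for XTH17, and in 11 and 13 for HB1 and AT4G10160. On the lowered side, AT3G26460, of the polyketide cyclase and lipid transport family, had a log2 difference of -0.78 (SE 0.21, limma adjusted p = 0.00462) and AT3G46700, a UDP-glycosyltransferase gene, -0.51 (SE 0.11, limma adjusted p = 0.00106), and the class held in 22 and 20 of 23 settings.

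Triterpene synthesis genes stood among both the raised and the lowered members of that class. LUP1, lupeol synthase, had 1455, 1299.7 and 1579 normalized reads with Heatin at 22°C, 639, 635 and 709 in mock at 27°C and 528, 544 and 532 in mock at 22°C. Each Heatin sample was above every mock sample at either temperature, with a log2 difference of 1.12 (SE 0.07, limma adjusted p = 2.9e-09). THAS1, the synthase that makes thalianol, had 254, 242 and 194 normalized reads with Heatin at 22°C, 293, 289 and 349 in mock at 27°C and 595, 634 and 957 in mock at 22°C. Heatin and warmth both lowered it, with values that fell by 1.63 and 1.20 on the log2 scale, and the Heatin samples lay below the warm-grown ones without overlap. The log2 difference of -0.43 (SE 0.15, limma adjusted p = 0.0224) was not called without Heatin replicate 3 (limma adjusted p = 0.110).

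The other thalianol genes, neighbours of THAS1 in a cluster on chromosome 5 (19428888 to 19461706 in TAIR10.1, 32.8 kb), were lower in Heatin at 22°C than at 27°C too. CYP708A2, which hydroxylates thalianol, had 85.3, 79.4 and 60.6 normalized reads with Heatin at 22°C, 175, 173 and 193 in mock at 27°C and 207, 217 and 264 in mock at 22°C. The Heatin values were the lowest and overlapped neither mock group, with a log2 difference of -1.26 (SE 0.16, limma adjusted p = 5.4e-06). Warmth lowered CYP708A2 by a narrow margin (limma adjusted p = 0.0803), so it counted as past the warm level in only 13 of 23 settings, against 23 for LUP1 and 22 for THAS1. CYP705A5, which desaturates the hydroxylated product, had a log2 difference of -1.48 (limma adjusted p = 0.000210) and the acetyltransferase gene THAA1 -0.63 (0.0267). In the marneral cluster on the same chromosome (17023502 to 17058245, 34.7 kb), marneral synthase MRN1 had 7.84 ± 8.31 normalized reads with Heatin at 22°C, 72.2 ± 19.2 in mock at 27°C and 33.0 ± 12.4 in mock at 22°C (mean ± SD, n = 3). The groups did not overlap. Warmth raised MRN1 (limma adjusted p = 0.0726) and Heatin lowered it (0.0363), but the opposite direction held in only 11 of 23 settings and the Heatin call in 17. The direct comparison gave a log2 difference of -3.43 (SE 0.51, limma adjusted p = 3.0e-05), and its neighbours CYP705A12 and CYP71A16 had log2 differences of -1.12 (limma adjusted p = 0.00682) and -0.96 (3.9e-05). Over the 8 triterpene genes listed, 7 were lower and 1, LUP1, was higher in the direct comparison (28.9% and 32.4% of all genes tested), with a median log2 difference of -1.04 against 0.03 for all genes tested. THAS1, CYP708A2 and LUP1 belong to gene sets that the study derived from these samples, which are no independent evidence of their direction.

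**Figure D3:**
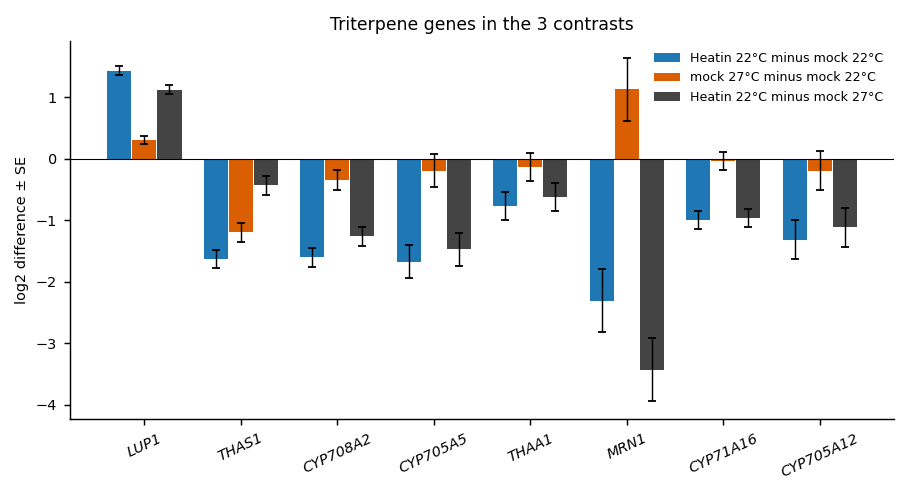
Log2 differences (y axis, bars, with SE, n = 3 per group) of 8 triterpene genes in Heatin at 22°C against mock at 22°C, in mock at 27°C against mock at 22°C, and in Heatin at 22°C against mock at 27°C. LUP1 is higher in Heatin at 22°C than in mock at 27°C (1.12), while the 7 thalianol and marneral genes are lower, down to -3.43 for MRN1.

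Genes that Heatin moved in the direction of warmth but left short of it covered a wide range. CYP71B19, a cytochrome P450 gene, had 112, 110.4 and 123 normalized reads with Heatin at 22°C, 617, 614 and 728 in mock at 27°C and 42.3, 39.7 and 38.8 in mock at 22°C. Heatin samples were above all mock samples at 22°C and far below all warm-grown ones, with a remaining log2 difference of -2.49 (SE 0.10, limma adjusted p = 2.5e-11). XTH24, another wall-remodelling enzyme gene, had 5703, 4963 and 5742 normalized reads with Heatin at 22°C, 29484, 34833 and 36094 in mock at 27°C and 3428, 4515 and 3047 in mock at 22°C. It rose by 0.59 under Heatin and by 3.21 under warmth, a log2 difference of -2.61 (SE 0.13, limma adjusted p = 1.6e-10). CAT3, a catalase that breaks down hydrogen peroxide, had 72485, 70669 and 78576 normalized reads with Heatin at 22°C, 135613, 145975 and 146873 in mock at 27°C and 49964, 52469 and 45986 in mock at 22°C. The 3 groups of CAT3 did not overlap, and the log2 difference was -0.95 (SE 0.08, limma adjusted p = 1.2e-07). HIS1-3, a linker histone gene, had a log2 difference of -1.08 (SE 0.08, limma adjusted p = 1.2e-08) and SAUR44, an auxin-induced growth gene, -1.18 (SE 0.26, limma adjusted p = 0.00111). The class held for CYP71B19, XTH24, CAT3, HIS1-3 and SAUR44 in 23, 20, 23, 22 and 17 of 23 alternative settings.

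In 98 genes (0.421%) Heatin and warmth moved transcripts in opposite directions, so Heatin took them farther from the warm level; Heatin raised 44 of them and lowered 54. NAS2, a synthase of the metal chelator nicotianamine, had 651, 427 and 596 normalized reads with Heatin at 22°C, 12.3, 12.3 and 9.07 in mock at 27°C and 367, 230.4 and 296 in mock at 22°C. Heatin samples were the highest and warm-grown samples the lowest, without overlap, at a log2 difference of 5.51 (SE 0.22, limma adjusted p = 3.5e-11), or 45.4-fold. AT4G35810, of the 2-oxoglutarate and iron dependent oxygenases, had 149 ± 7.51 normalized reads with Heatin at 22°C, 19.1 ± 1.67 in mock at 27°C and 71.7 ± 10.6 in mock at 22°C (mean ± SD, n = 3). The order of the groups was the same, with a log2 difference of 2.90 (SE 0.19, limma adjusted p = 3.0e-09). EXPA1, an expansin that loosens cell walls, had 8638, 7884 and 8301 normalized reads with Heatin at 22°C, 1906, 1710.3 and 1937 in mock at 27°C and 7538, 6841 and 6656 in mock at 22°C. The Heatin effect of EXPA1 was small at 0.24 (limma adjusted p = 0.0936), beside a direct log2 difference of 2.16 (SE 0.07, limma adjusted p = 2.3e-12) and a warmth effect of -1.92. The peroxidase gene AT2G41480 had a log2 difference of 2.26 (SE 0.18, limma adjusted p = 3.1e-08), and the opposite direction held in 20 of 23 settings.

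HSP17.4, a small heat shock protein that holds unfolding proteins, had the lowest direct difference among genes moved in opposite directions with a mean of at least 50 in mock or Heatin at 22°C. It had 28.4, 33.5 and 31.4 normalized reads with Heatin at 22°C, 401, 482 and 449 in mock at 27°C and 45.0, 64.2 and 47.4 in mock at 22°C. Heatin samples were below all mock samples at 22°C and the warm-grown ones far above, at a log2 difference of -3.79 (SE 0.15, limma adjusted p = 3.5e-11), or 13.9-fold lower. AT2G47780, a rubber elongation factor family gene, had 44.7, 34.7 and 27.2 normalized reads with Heatin at 22°C, 288, 369 and 297 in mock at 27°C and 84.6, 68.0 and 97.7 in mock at 22°C. Its log2 difference was -3.14 (SE 0.18, limma adjusted p = 7.8e-10). PER1, a seed peroxiredoxin, had a log2 difference of -3.20 (SE 0.20, limma adjusted p = 2.3e-09), and LTI65, a dehydration-induced protein gene, had a log2 difference of -2.47 (SE 0.14, limma adjusted p = 6.5e-10). The opposite direction held in 23 of 23 settings for AT4G35810 and AT2G47780, but in 17 for NAS2, 16 for HSP17.4, 12 for PER1, 12 for LTI65 and 11 for EXPA1. PER1 is known from seeds, and the seed storage sums given above differed between the same groups. Without Heatin replicate 2, the library with the highest such sum, the log2 difference of PER1 was -3.19.

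The 250 bases before the annotated gene start are shown for 5 genes that differ in class: HSP17.4 (opposite to warmth), the clock genes PRR7 and PRR5 (not called for Heatin against mock at 22°C, with direct log2 differences of -2.29 and -2.11), AT5G51790 (brought to the warm level) and AT4G11190 (past it). They were read from the RefSeq genome TAIR10.1 at chr3:16984868-16985117 (minus strand), chr5:642031-642280 (minus), chr5:8358547-8358796 (minus), chr5:21039283-21039532 (plus) and chr4:6826337-6826586 (plus), 5′ to 3′ along the gene. Capitals mark matches on either strand to the G-box CACGTG, the auxin response element TGTCTC, the heat shock element core GAANNTTC and the evening element AAATATCT.
HSP17.4 upstream: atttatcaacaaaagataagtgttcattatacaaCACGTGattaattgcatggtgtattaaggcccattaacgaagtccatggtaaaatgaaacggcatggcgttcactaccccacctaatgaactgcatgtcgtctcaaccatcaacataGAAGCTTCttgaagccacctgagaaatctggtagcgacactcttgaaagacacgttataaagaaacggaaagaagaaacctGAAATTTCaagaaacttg
PRR7 upstream: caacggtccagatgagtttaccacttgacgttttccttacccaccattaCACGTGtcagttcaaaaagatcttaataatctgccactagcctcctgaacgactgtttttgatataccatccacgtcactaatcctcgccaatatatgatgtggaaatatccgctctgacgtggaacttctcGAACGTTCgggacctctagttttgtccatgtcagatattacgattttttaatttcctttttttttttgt
PRR5 upstream: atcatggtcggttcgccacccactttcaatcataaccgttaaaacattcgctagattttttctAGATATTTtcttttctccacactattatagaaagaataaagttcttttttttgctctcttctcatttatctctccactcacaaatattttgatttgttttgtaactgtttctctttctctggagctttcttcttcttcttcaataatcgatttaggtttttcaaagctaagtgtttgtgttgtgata
AT5G51790 upstream: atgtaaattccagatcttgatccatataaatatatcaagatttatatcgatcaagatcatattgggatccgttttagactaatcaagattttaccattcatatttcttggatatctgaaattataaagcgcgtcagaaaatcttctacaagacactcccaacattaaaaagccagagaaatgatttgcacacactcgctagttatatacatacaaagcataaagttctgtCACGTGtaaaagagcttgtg
AT4G11190 upstream: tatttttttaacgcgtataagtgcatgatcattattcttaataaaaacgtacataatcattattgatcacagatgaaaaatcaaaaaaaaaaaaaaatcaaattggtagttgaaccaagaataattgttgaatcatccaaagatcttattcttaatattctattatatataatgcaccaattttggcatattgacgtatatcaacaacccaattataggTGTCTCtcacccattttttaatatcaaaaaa
HSP17.4 held 2 heat shock cores, starting 99 and 18 bases before the gene, and a G-box at 216. PRR7 held a G-box at 201 and a heat shock core at 69, PRR5 an evening element at 187, AT5G51790 a G-box at 20 and AT4G11190 an auxin response element at 31. Of the windows of this length of 23077 tested genes, 7.14% held a G-box, 10.8% an auxin response element, 9.38% a heat shock core and 4.78% an evening element. Among the 181 genes brought to the warm level 12, 19, 20 and 12 held them in the same order. A match describes the letters only.

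**Figure D4:**
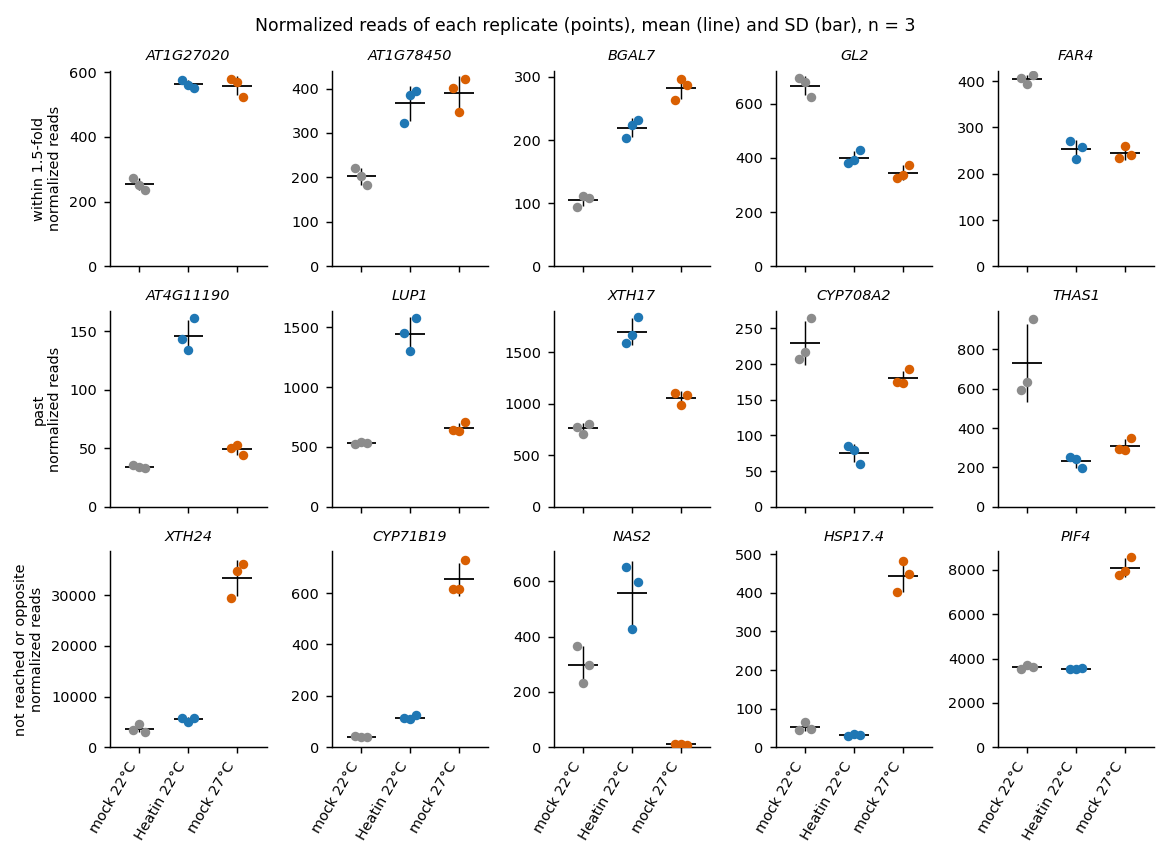
Normalized reads of each replicate (points) with the mean (line) and SD (bar), n = 3, in mock at 22°C, Heatin at 22°C and mock at 27°C for 15 genes; each panel has its own y axis. In the top row Heatin at 22°C lies near mock at 27°C (AT1G27020 at 562 ± 12.7 and 558 ± 29.3), in the middle row it lies beyond it, and in the bottom row it stays short of it, moves away from it or, for PIF4, remains at 3538 ± 23.1 against 8096 ± 429.6.

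The highest direct differences belonged mostly to genes that warmth lowered and Heatin left without a call. AT2G15020, an uncharacterized gene, had 416, 476 and 549.9 normalized reads with Heatin at 22°C against 9.55, 2.83 and 7.68 in mock at 27°C, which gave a log2 difference of 6.08 (SE 0.32, limma adjusted p = 4.4e-10). The groups were far apart, though the genes of this paragraph were picked for not overlapping, and the Heatin effect of AT2G15020 was -0.49 (limma adjusted p = 0.569). CYP82C4, a cytochrome P450 of coumarin synthesis under iron shortage, had 249, 221 and 359.6 normalized reads with Heatin at 22°C against 9.55, 5.67 and 4.89 in mock at 27°C, a log2 difference of 5.19 (SE 0.26, limma adjusted p = 2.3e-10). AT1G29720, a leucine-rich repeat kinase gene, had 158, 134 and 211 normalized reads with Heatin at 22°C against 1.36, 0 and 0.698 in mock at 27°C. AT3G43715, uncharacterized, had 39.3, 64.5 and 58.5 normalized reads with Heatin at 22°C against 1.36, 0 and 1.40 in mock at 27°C. AT1G29720 and AT3G43715 were at or near 0 in the warm-grown samples, so the size of their log2 differences, 6.71 and 4.92, depends on the added 1. AT5G33370, a GDSL lipase gene, had 44.7, 43.4 and 107 normalized reads with Heatin at 22°C and 0 in each mock sample at 27°C, at least 21.6-fold higher when 3 reads per library are taken as the limit of a count of 0.

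The lowest differences were found in genes that warmth raised. GLYI7, a glyoxalase I family gene, had 223, 114 and 209 normalized reads with Heatin at 22°C against 2369, 3201 and 2456 in mock at 27°C, a log2 difference of -3.92 (SE 0.25, limma adjusted p = 2.6e-09), or 15.1-fold lower. BETA-TIP, a vacuolar water channel known from seeds, had 46.0, 73.2 and 37.6 normalized reads with Heatin at 22°C against 663, 838 and 576 in mock at 27°C (log2 difference -3.74, SE 0.29, limma adjusted p = 2.6e-08). AT2G23110, a late embryogenesis abundant gene, had 6.77, 13.6 and 14.6 normalized reads with Heatin at 22°C against 218, 180.5 and 219 in mock at 27°C (log2 difference -4.09, SE 0.26, limma adjusted p = 3.4e-09). Replicates of GLYI7, BETA-TIP and AT2G23110 did not overlap, which was a condition for naming the genes of highest and lowest difference. Without Heatin replicate 2, which had the highest seed storage sum, the log2 differences of BETA-TIP and AT2G23110 were -4.01 and -4.23. AT1G71250, a GDSL lipase gene, had a log2 difference of -4.54 (SE 0.31, limma adjusted p = 5.4e-09). AT3G58450, of the adenine nucleotide alpha hydrolase family, had a log2 difference of -3.94 (SE 0.27, limma adjusted p = 7.6e-09) and was lowered by Heatin itself (-1.65, limma adjusted p = 0.00526).

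The lists that follow stand against all genes tested, of which 32.4% were higher and 28.9% lower in Heatin at 22°C than in mock at 27°C, and 1.39% higher and 1.08% lower than in mock at 22°C. Auxin response genes did not move as 1 block. Of 28 Aux/IAA repressor genes tested, 9 were higher and 12 lower in Heatin at 22°C than in mock at 27°C (75.0% called), with a median log2 difference of -0.15 (-0.23 to -0.06 over the alternative settings), and 5 were higher and 0 lower against mock at 22°C (limma; 8 and 1 at an unadjusted p below 0.05; 5 and 0 with edgeR, 6 and 0 with DESeq2, 5 and 0 with voom). IAA20 had 16.2, 13.6 and 6.27 normalized reads with Heatin at 22°C, 61.4, 114 and 55.1 in mock at 27°C and 12.3, 13.2 and 8.62 in mock at 22°C. Heatin samples overlapped mock at 22°C and warm-grown samples lay above both, at a log2 difference of -2.59 (SE 0.35, limma adjusted p = 1.0e-05). IAA34 had a log2 difference of -1.41 (SE 0.19, limma adjusted p = 9.3e-06). IAA19, one of the 5 raised by Heatin, had a log2 difference of 0.46 (SE 0.12, limma adjusted p = 0.00329), and IAA7 and IAA9, also raised, were within 1.5-fold of the warm level at -0.39 and -0.06. IAA5 and IAA32 had few reads, with log2 differences of 1.17 (limma adjusted p = 0.0576) and -1.36 (0.0278), and their calls were lost in some fits without 1 replicate: that of IAA5 without Heatin replicate 2 (0.124) or 3 (0.280) or mock at 27°C replicate 1 (0.163) or 2 (0.109), and that of IAA32 without Heatin replicate 1 (0.108).

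GH3 enzymes conjugate auxin and related acids to amino acids. Of 8 tested, 3 were higher and 2 lower, with a median of 0.20 that turned to -0.04 with a minimum mean of 10. GH3.9 had 125, 103 and 140.1 normalized reads with Heatin at 22°C against 20.5, 15.1 and 14.7 in mock at 27°C (log2 difference 2.80, SE 0.19, limma adjusted p = 6.6e-09), while GH3.2 had 418, 375 and 335 normalized reads with Heatin at 22°C against 584, 886 and 611 in mock at 27°C (log2 difference -0.86, SE 0.17, limma adjusted p = 0.000475). The groups of GH3.9 and of GH3.2 did not overlap and their order was reversed. GH3.1 had a log2 difference of 0.71 (SE 0.24, limma adjusted p = 0.0180) and GH3.3, which Heatin raised by 1.40, had a log2 difference of 0.43 (SE 0.14, limma adjusted p = 0.0139). GH3.12 had few reads, with 1.02 (limma adjusted p = 0.136). Among 71 SAUR genes, which promote cell expansion, 14 were higher, 11 lower and 46 not called (35.2% called), with a median of 0.10 that turned to -0.02 without mock at 27°C replicate 2. The number lower was 6 without Heatin replicate 1 and 7 without mock at 27°C replicate 1 or replicate 3. SAUR15 had a log2 difference of 1.00 (SE 0.20, limma adjusted p = 0.000511), SAUR77 -1.01 (SE 0.26, limma adjusted p = 0.00338) and SAUR17, at few reads, 1.11 (SE 0.54, limma adjusted p = 0.0946), a call that was lost without any 1 replicate of Heatin at 22°C, without mock at 22°C replicate 2 or 3 and without mock at 27°C replicate 2 or 3.

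Auxin synthesis genes were mostly higher in Heatin at 22°C than in warm-grown seedlings. Warmth raised 4 of the 19 and lowered 11 against mock at 22°C. Of 19 tested, 12 were higher and 3 lower, with a median of 0.53 (0.43 to 0.56 over the alternatives), while the contrast with mock at 22°C called 0 (limma; 2 higher and 2 lower at an unadjusted p below 0.05; 0 with edgeR, DESeq2 and voom). CYP79B2 and CYP79B3, which convert tryptophan to indole-3-acetaldoxime, had 1467, 972 and 1198 normalized reads with Heatin at 22°C against 411, 484 and 373 in mock at 27°C and 4356, 4269.9 and 4291 normalized reads with Heatin at 22°C against 2055, 1827 and 1786 in mock at 27°C. No replicates overlapped, and the log2 differences were 1.51 (SE 0.16, limma adjusted p = 1.0e-06) and 1.19 (SE 0.08, limma adjusted p = 8.5e-09). CYP71A13, which makes indole-3-acetonitrile, had a log2 difference of 1.60 (limma adjusted p = 0.00177), and the flavin monooxygenase gene YUC1 had a log2 difference of 1.55 (0.00188). YUC8, named here after its value was seen because it is a known warmth-induced gene, had 448, 434 and 487 normalized reads with Heatin at 22°C, 831, 807 and 861 in mock at 27°C and 525, 515 and 514 in mock at 22°C. Its Heatin samples stayed below the warm-grown ones (log2 difference -0.87, SE 0.06, limma adjusted p = 1.3e-08).

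The nitrilase genes NIT1, NIT2 and NIT3, whose enzymes can turn indole-3-acetonitrile into auxin, had small direct differences. NIT1 had 24942, 23934 and 27588 normalized reads with Heatin at 22°C, 36174, 32184 and 36266 in mock at 27°C and 26568, 28628 and 31141 in mock at 22°C. All Heatin samples were below all warm-grown ones at a log2 difference of -0.45 (SE 0.08, limma adjusted p = 9.7e-05). NIT2 had 6343, 4742 and 6354 normalized reads with Heatin at 22°C against 4622, 4878 and 4595 in mock at 27°C. The groups overlapped, with a log2 difference of 0.29 (SE 0.10, limma adjusted p = 0.0205) that was not called without Heatin replicate 1 (0.101). NIT3 had 713, 737 and 679.6 normalized reads with Heatin at 22°C against 693, 577 and 705 in mock at 27°C, also overlapping, at 0.11 (95% interval -0.10 to 0.33, limma adjusted p = 0.365). Heatin effects against mock at 22°C were -0.17, 0.26 and -0.12 in the same order, none of them called.

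Cell wall genes moved in both directions. Among 31 XTH genes, 16 were higher and 10 lower in Heatin at 22°C than at 27°C (83.9% called, median 0.13, 0.06 to 0.23 over the alternatives), and Heatin raised 7 and lowered 2 against mock at 22°C. XTH15 had 3769, 4252 and 3306 normalized reads with Heatin at 22°C, 44059, 63293 and 43328 in mock at 27°C and 5663, 5387 and 4626 in mock at 22°C. Heatin samples lay just below the mock samples at 22°C, and the log2 difference was -3.72 (SE 0.17, limma adjusted p = 9.8e-11), or 13.2-fold lower. XTH31 had the reverse order, with 1910.0, 1835 and 1579 normalized reads with Heatin at 22°C against 292, 364 and 216 in mock at 27°C (log2 difference 2.63, SE 0.17, limma adjusted p = 3.1e-09). XTH25 had a log2 difference of -2.05 (SE 0.19, limma adjusted p = 1.5e-07) and was lowered by Heatin although warmth raised it. Alpha-expansins were mostly higher, 14 of 19 with 1 lower (median 0.60, 0.53 to 0.74). Compared with mock at 22°C, warmth raised 3 and lowered 13 of the 19, and Heatin called 2, as higher. Besides EXPA1, EXPA10 had 458, 394 and 439 normalized reads with Heatin at 22°C against 173, 133 and 144 in mock at 27°C (log2 difference 1.52, SE 0.12, limma adjusted p = 2.6e-08).

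Photoreceptor and PIF pathway genes gave 10 higher and 8 lower of 24 (75.0% called, median 0.11, 0.02 to 0.20). PIF4 had 3537, 3515 and 3561 normalized reads with Heatin at 22°C, 7767, 7939 and 8582 in mock at 27°C and 3525, 3686 and 3601 in mock at 22°C. Heatin samples overlapped the mock samples at 22°C and were all below those at 27°C, at a log2 difference of -1.19 (SE 0.06, limma adjusted p = 1.4e-10) and a Heatin effect of -0.03 (limma adjusted p = 0.891). Its relative PIF7 went the other way with 319, 279 and 284 normalized reads with Heatin at 22°C against 151, 146 and 121 in mock at 27°C (log2 difference 1.08, SE 0.11, limma adjusted p = 3.7e-07). HYH, a light-promoted bZIP factor close to HY5, had a log2 difference of 1.35 (SE 0.13, limma adjusted p = 3.2e-07), and PRE6, a helix-loop-helix growth regulator, had a log2 difference of 1.20 (SE 0.10, limma adjusted p = 9.6e-08). PRE5, which Heatin raised by 1.37, was past the warm level at a log2 difference of 0.61 (SE 0.21, limma adjusted p = 0.0189).

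Clock genes were mostly lower in Heatin at 22°C than in mock at 27°C. Warmth raised 11 of the 20 and lowered 6 against mock at 22°C. Of 20 tested, 4 were higher and 11 lower than in mock at 27°C, with a median log2 difference of -0.54 (-0.62 to -0.49 over the alternatives), and Heatin called 0 of them against mock at 22°C (limma; 0 higher and 2 lower at an unadjusted p below 0.05; 0 with edgeR, DESeq2 and voom). PRR7, a pseudo-response regulator that represses morning genes, had 1126, 1037 and 1117 normalized reads with Heatin at 22°C, 4688, 5889.8 and 5511 in mock at 27°C and 1153, 1089.5 and 945 in mock at 22°C. Heatin overlapped mock at 22°C, and the log2 difference to the warm level was -2.29 (SE 0.10, limma adjusted p = 9.5e-11). PRR5 had 36.5, 33.5 and 52.3 normalized reads with Heatin at 22°C against 149, 193 and 189.8 in mock at 27°C (log2 difference -2.11, SE 0.21, limma adjusted p = 4.3e-07), PRR3 -3.07 (limma adjusted p = 1.8e-07) and GI, the clock-linked flowering regulator, -2.30 (1.2e-09). The groups of PRR5, PRR3 and GI did not overlap. Of the 20 upstream windows of the list, 7 held a G-box and 5 an evening element, the latter among them that of PRR5 printed above. All samples were taken at 1 time of day, so a shift of phase and a change of level cannot be told apart.

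Heat shock genes were lower in Heatin at 22°C in 13 of 18 cases, higher in 1 (2 without mock at 27°C replicate 1) and not called in 4 (77.8% called), with a median of -1.02 (-1.25 to -0.67). HSP90.1, a cytosolic chaperone, had 649.7, 662 and 690.0 normalized reads with Heatin at 22°C, 3123, 3485 and 3431 in mock at 27°C and 664, 738 and 919 in mock at 22°C. Heatin values overlapped the lowest of mock at 22°C and were all below those at 27°C, at a log2 difference of -2.32 (SE 0.10, limma adjusted p = 9.3e-11). HSP70 had 1653, 1739 and 1807 normalized reads with Heatin at 22°C against 5705, 6227 and 6913 in mock at 27°C (log2 difference -1.85, SE 0.09, limma adjusted p = 2.8e-10). HSP17.6A, another small heat shock gene, had a log2 difference of -2.34 (SE 0.31, limma adjusted p = 8.8e-06). Against mock at 22°C, warmth raised 9 and lowered 3 of the 18. In the contrast of Heatin with mock at 22°C, HSP17.4 was the single heat shock gene called, as lower, at a limma adjusted p of 0.0310. No heat shock gene was called in that contrast with edgeR, DESeq2 or voom. A heat shock core lay in 3 of the 18 upstream windows, and that of HSP17.4, printed above, held a pair.

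Photosynthesis and chlorophyll genes were higher in Heatin at 22°C than in mock at 27°C in 23 of 26 cases and lower in 1. The median was 0.92 (0.84 to 0.98), against 0.03 for all genes tested. Compared with mock at 22°C, warmth lowered 24 of the 26, and Heatin called 1, as lower. The summed shoot markers moved with this list, but RBCS1A, RBCS3B, CAB1 and LHCB2.1 are members of both. The marker sum is therefore not a separate measure, and its part was not tested. RBCS1B, a small subunit of Rubisco, had 34324, 35888 and 36249 normalized reads with Heatin at 22°C, 7013, 5087 and 6005 in mock at 27°C and 40109.6, 38923 and 38391 in mock at 22°C. Heatin lay just below the mock samples at 22°C and well above the warm-grown ones (log2 difference 2.57, SE 0.10, limma adjusted p = 3.2e-11). CAB2, a chlorophyll-binding antenna protein, had 336059.8, 381825 and 339259.8 normalized reads with Heatin at 22°C against 155465, 123013 and 120004 in mock at 27°C (log2 difference 1.42, SE 0.12, limma adjusted p = 5.0e-08). PORC and CAO, enzymes of chlorophyll synthesis, had log2 differences of 1.54 (limma adjusted p = 1.6e-10) and 1.47 (3.5e-10). CAB2 and the other antenna and RBCS genes have near-identical copies that may share reads.

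Flavonoid genes were higher in 9 of 14 cases and lower in 0 (limma, also 0 at an unadjusted p below 0.05 and with edgeR, DESeq2 and voom; 1 without mock at 27°C replicate 1), with a median of 1.08, or 0.97 with the gene at 0 in warm-grown samples set to its bound. TT8, a regulator of anthocyanin genes, had 23.0, 12.4 and 8.36 normalized reads with Heatin at 22°C against 0, 0.945 and 0 in mock at 27°C (log2 difference 3.53, SE 0.76, limma adjusted p = 0.000917). DFR, an enzyme of the anthocyanin branch, had 9.48, 9.92 and 12.5 normalized reads with Heatin at 22°C against 0, 0.945 and 2.09 in mock at 27°C (log2 difference 2.67, SE 0.53, limma adjusted p = 0.000478). LDOX, which acts after DFR, had a log2 difference of 2.58 (SE 0.60, limma adjusted p = 0.00181). These 3 genes had few reads, so their sizes depend on the added 1, and the count of higher genes was 5 with a minimum mean of 10. PAP1 (MYB75), their activator, was at 0 in all warm-grown samples and had 4.06, 2.48 and 2.09 normalized reads with Heatin at 22°C, on average at or under the limit of 3 reads per library, so no fold is given. Compared with mock at 22°C, warmth lowered 10 of the 14 flavonoid genes, and Heatin called 1, as higher.

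Genes of iron uptake, transport, storage and regulation, counted as 1 list, were higher in 15 of 19 cases and lower in 2 (median 0.63, 0.46 to 0.72). Compared with mock at 22°C, warmth raised 3 and lowered 10 of the 19, and Heatin called 3, as higher. IRT1, the root iron transporter, had 2717, 2154 and 3256 normalized reads with Heatin at 22°C, 487, 176 and 380.3 in mock at 27°C and 2416, 1582 and 1579 in mock at 22°C. FRO2, the ferric reductase that works with it, had 861, 679.6 and 1252 normalized reads with Heatin at 22°C, 138, 98.3 and 161 in mock at 27°C and 1191, 719 and 815 in mock at 22°C. Heatin samples of both genes were above all warm-grown samples, at log2 differences of 3.06 (SE 0.27, limma adjusted p = 1.1e-07) and 2.79 (SE 0.22, limma adjusted p = 2.7e-08). Their log2 differences from mock at 22°C were 0.55 and 0.02, and neither was called. NAS1 had a log2 difference of 1.89 (SE 0.16, limma adjusted p = 4.7e-08). The 9 root hair genes gave 8 higher and 0 lower (limma, also 0 at an unadjusted p below 0.05 and with edgeR, DESeq2 and voom), with a median of 0.97. Warmth lowered all 9 against mock at 22°C. The median Heatin effect was -0.58, and Heatin called 1, as lower (limma, 3 lower at an unadjusted p below 0.05, 2 with edgeR, DESeq2 and voom). That gene was GL2, described above as brought down, which is also among the 8. GL2 keeps root epidermal cells hairless, unlike the hair growth genes of the list, and its call as short of the warm level held in 12 of 23 settings. LRX1, an extensin of growing root hairs, had 141, 126 and 87.8 normalized reads with Heatin at 22°C against 32.7, 46.3 and 27.2 in mock at 27°C (log2 difference 1.72, SE 0.28, limma adjusted p = 8.3e-05). EXPA7 had a log2 difference of 1.64 (limma adjusted p = 6.2e-05), EXPA18 1.54 (0.000390) and PRP3, a wall protein, 1.34 (0.000662). The summed root markers, 106268 to 114814 in Heatin at 22°C and 71584 to 84001 in mock at 27°C, moved with both lists, IRT1 is one of them, and their part was not tested.

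Salicylic acid defence genes were higher in 7 of 12 cases and lower in 1 (median 0.56, or 0.49 with the gene at 0 in a group set to its bound). Compared with mock at 22°C, warmth raised 1 and lowered 6 of the 12, and Heatin called 1, as higher. ICS1, the main salicylic acid synthesis enzyme, had 772, 814 and 726 normalized reads with Heatin at 22°C against 273, 252 and 251 in mock at 27°C (log2 difference 1.57, SE 0.07, limma adjusted p = 1.4e-10). Its groups did not overlap, and it was not called against mock at 22°C. The defence regulator WRKY70 had a log2 difference of 1.14 (SE 0.18, limma adjusted p = 5.3e-05) and a Heatin effect of 0.72 (limma adjusted p = 0.0657), WRKY54 had a log2 difference of 1.01 (limma adjusted p = 0.00326) and the pathogenesis-related gene PR5 2.33 (0.000197). Glucosinolate genes were higher in 14 of 20 cases and lower in 1 (2 after scaling to total reads), with a median of 0.46. Compared with mock at 22°C, warmth raised 2 and lowered 15 of the 20, and Heatin called 2, as lower. BCAT4, CYP79F1, CYP79F2 and the regulator MYB29, all of the methionine-derived branch, had log2 differences of 3.11, 3.00, 2.01 and 2.49 (limma adjusted p = 0.000908, 0.00317, 0.00101 and 0.00757), at few reads in the warm-grown samples. CYP79F1 and CYP79F2 are close copies that may share reads.

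Cold-regulated genes gave 4 higher and 7 lower of 14 (median -0.38, -0.46 to -0.32). Compared with mock at 22°C, warmth raised 5 and lowered 5 of the 14. Heatin called 0 higher and 3 lower (limma; 0 and 3 with edgeR, 0 and 4 with DESeq2, 1 and 3 with voom). The cold response activators CBF1 and CBF3 were at few reads, with 1.35, 0 and 4.18 and 0, 2.48 and 0 normalized reads with Heatin at 22°C and 12.3, 29.3 and 20.9 and 5.46, 4.72 and 13.3 in mock at 27°C. They were lower in Heatin, with log2 differences of -3.17 (SE 0.78, limma adjusted p = 0.00274) and -2.41 (SE 0.72, limma adjusted p = 0.00922). COR28, a clock-linked cold gene, had a log2 difference of -2.30 (SE 0.31, limma adjusted p = 1.1e-05), and GOLS3, a galactinol synthase, went the other way with a log2 difference of 2.38 (SE 0.32, limma adjusted p = 1.1e-05). Of 8 redox enzyme genes, 3 were higher and 5 lower (median -0.34, -0.42 to -0.31). CAT1 had 1092, 1081 and 1156 normalized reads with Heatin at 22°C against 1880.3, 2137 and 2027 in mock at 27°C (log2 difference -0.86, SE 0.06, limma adjusted p = 1.2e-08), CSD2, a copper/zinc superoxide dismutase, had a log2 difference of 0.51 (SE 0.15, limma adjusted p = 0.00929). The ascorbate peroxidase APX2, known from heat responses, had 0, 2.48 and 0 normalized reads with Heatin at 22°C against 23.2, 12.3 and 30.7 in mock at 27°C (log2 difference -3.84, SE 0.69, limma adjusted p = 0.000190).

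Major latex protein-like genes gave 3 higher and 2 lower of 9, and their median of -0.16 changed sign over the alternatives (-0.25 to 0.06). MLP423 had 265, 260.4 and 297 normalized reads with Heatin at 22°C against 77.8, 64.3 and 51.6 in mock at 27°C (log2 difference 2.09, SE 0.24, limma adjusted p = 1.8e-06). MLP329 had 2791, 3902 and 2829 normalized reads with Heatin at 22°C against 5244, 5409.8 and 4697 in mock at 27°C (log2 difference -0.70, SE 0.10, limma adjusted p = 2.3e-05). Neither pair of groups overlapped, but the call of MLP329 was lost with 24 samples in the fit (limma adjusted p = 0.202). The number lower was 5 without Heatin replicate 2 and 4 without mock at 27°C replicate 3 or under other scalings and count tests, and MLP168 (0.48, limma adjusted p = 0.280) and MLP31 (-0.87, 0.305) were not called. Seed storage and late embryogenesis genes gave 0 higher (limma, also 0 at an unadjusted p below 0.05 and with DESeq2 and voom, 2 with edgeR) and 4 lower of 14, with a median of 0.10 that was -1.60 without Heatin replicate 2 and 1.61 without Heatin replicate 3. M17 had 23.0, 86.8 and 35.5 normalized reads with Heatin at 22°C against 385, 343 and 366 in mock at 27°C (log2 difference -3.10, SE 0.48, limma adjusted p = 4.3e-05). EM6 had 12.2, 13.6 and 20.9 normalized reads with Heatin at 22°C against 94.2, 108 and 144 in mock at 27°C (log2 difference -2.82, SE 0.27, limma adjusted p = 2.4e-07). OLEO2, an oil body protein, had a log2 difference of -2.26 (SE 0.41, limma adjusted p = 0.000228) and EM1 -1.47 (SE 0.51, limma adjusted p = 0.0223), a call that was lost without Heatin replicate 1 (0.111).

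The study lists 31 genes as raised by Heatin at 22°C, by Heatin at 27°C and by warmth. Of these, 11 were higher, 13 lower and 7 not called in the direct comparison, with a median of -0.07 (-0.15 to -0.01), and 16 were within 1.5-fold of the warm level. Of 21 listed as lowered in the same 3 comparisons, 12 were higher, 3 lower (5 without Heatin replicate 1) and 6 not called, with a median of 0.23, and 8 were within 1.5-fold. Against mock at 22°C, the limma fit called 18 of the 21 as lowered by Heatin, and LRX1 and MLP423 were not among them. Of genes described above, AT1G27020, BGAL7, MLP28, LUP1, XTH17, CYP71B19, CAT3, HIS1-3, IAA19, GH3.3 and PRE5 belong to the raised set and GL2, CYP708A2, THAS1, AT3G46700, LRX1 and MLP423 to the lowered set. The study chose these genes on these samples, so their directions against mock at 22°C are no independent evidence. AT5G37950, a glycosyltransferase family gene of the raised set, had 23.0, 18.6 and 31.4 normalized reads with Heatin at 22°C, 12.3, 5.67 and 5.58 in mock at 27°C and 1.36, 0 and 2.87 in mock at 22°C. This was past the warm level at a log2 difference of 1.57 (SE 0.47, limma adjusted p = 0.00959), a call at few reads that was lost with 0.1 in place of 1 added (0.122). ANNAT7, a calcium-binding annexin gene of the lowered set, had 139, 189 and 155 normalized reads with Heatin at 22°C, 53.2, 48.2 and 57.9 in mock at 27°C and 222, 264 and 239.9 in mock at 22°C. Its Heatin samples lay between those of the mock groups, short of the warm level at a log2 difference of 1.57 (SE 0.16, limma adjusted p = 4.1e-07), but the Heatin call, and with it the class, held in 14 of 23 settings.

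**Figure D5:**
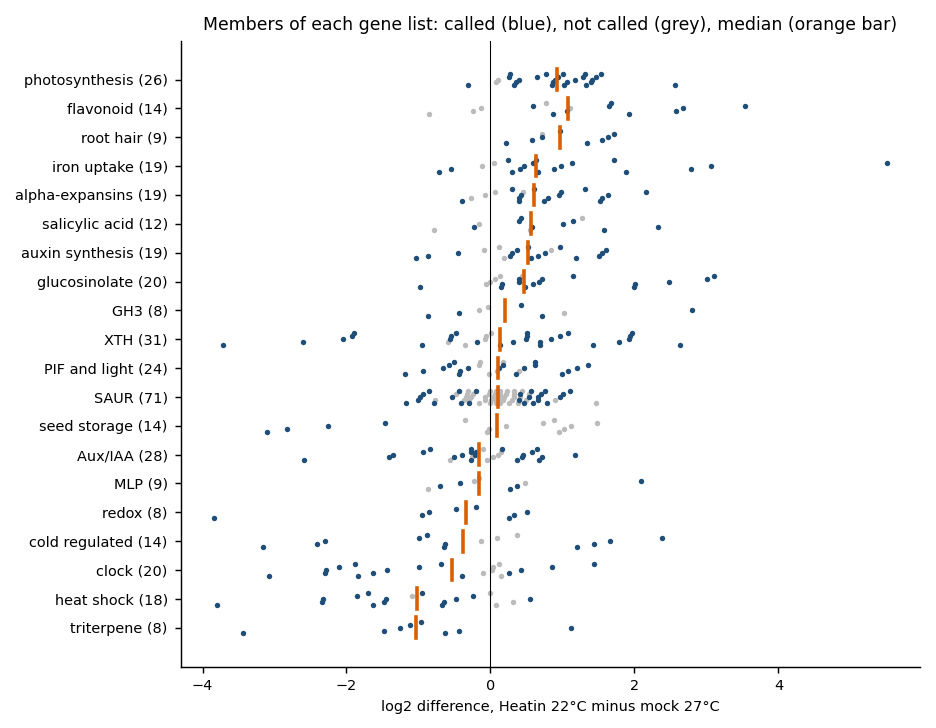
Log2 difference between Heatin at 22°C and mock at 27°C (x axis) for the members of 20 gene lists (rows), called genes in blue and others in grey (limma, adjusted p below 0.1), with the list median as an orange bar. Photosynthesis (0.92), root hair (0.97) and flavonoid (1.08) medians are positive, and heat shock (-1.02), triterpene (-1.04) and clock (-0.54) medians negative. The row labelled iron uptake also holds iron transport, storage and regulator genes. The axis does not show which group moved from mock at 22°C. Warmth lowered 24 of 26 photosynthesis, 9 of 9 root hair and 10 of 14 flavonoid genes, while Heatin called 1 in each of these lists.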

How the data were processed

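Gene-level values of 12 samples of 7-day-old Col-0 seedlings were used, of 24 in the series. The authors aligned single-end reads to TAIR10 with TopHat2, counted reads per gene with HTSeq-count without strand and divided them by 1 DESeq depth factor per sample, so the deposited values are a depth-adjusted signal, not counts. Reads of overlapping or antisense genes cannot be told apart. Each value was a whole multiple of its sample's step within a tolerance of 0.01, and whole reads were recovered from it for the count tests. The 5 summary lines were left out, and 32835 of 33540 gene IDs matched RefSeq TAIR10.1. Replicates of 1 group differed by more than counting noise (chi-square per degree of freedom 2.92 to 13.4), so none was counted as a duplicate.

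Genes averaging at least 1 were tested with limma 3.58.1 (R 4.3.3) on log2(value + 1), 1 mean per group, trended prior, and called at a Benjamini-Hochberg adjusted p below 0.1. Intervals are 95% and unadjusted, and the margin of a like level is 1.5-fold. A fold is 2 to the power of the log2 difference. Alternatives were other pseudocounts (0.1 and 5), minimum means (none and 10), threshold, samples in the fit, replicate block, scaling, margin, edgeR 4.0.16, DESeq2 1.42.0 and voom on recovered reads, and each replicate left out. The counts of each list under these alternatives were added after seeing the data. The code was tested on simulated data. Figures used matplotlib 3.10.9.

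The comparison, lists and rules were chosen with earlier results of these data known. Genes named are the 6 highest and 6 lowest direct differences among called, non-overlapping genes with a mean of at least 50 in the higher group, the 6 raised and 6 lowered genes brought to the warm level with the largest Heatin effect, 5 and 5 past it (AT5G37990 under both rules) and 4 and 4 opposite to warmth with the largest direct difference (these 3 classes with a mean of at least 50 in the higher of mock and Heatin at 22°C), and up to 4 members of each list with the largest direct difference among those called in any contrast, with the nitrilases always. MLP28, IAA7, IAA9, IAA19, GH3.3, YUC8, PRE5, THAA1, CYP705A12 and CYP71A16 were named after their values were seen. Family lists were taken by RefSeq symbol, leaving out ARF19, MP and NPH4 from Aux/IAA and AT5G01830 from SAUR, whose symbols matched by a synonym.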

Additional observations from a re-analysis of the deposited data

How the results depend on the processing

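The number of direct calls varied little, but their split into higher and lower depended on the scaling. The classes that need a Heatin call against mock at 22°C varied more. With each replicate omitted in turn there were 13138 to 14230 direct calls, 6985 to 7522 higher and 6150 to 6711 lower, 2476 to 2764 over 2-fold, 9940 to 10709 intervals within 1.5-fold and 13245 to 14493 warmth calls. It gave 237 to 564 Heatin calls, 70 to 166 genes brought to the warm level, 21 to 36 past it, 83 to 195 short of it and 36 to 100 opposite to warmth. At an adjusted p below 0.05 (limma) these 5 counts were 304, 91, 21, 102 and 48, while a fit of 24 samples gave 245, 71, 19, 58 and 36. With only the groups compared in the fit, 112 were brought to the warm level. The narrower of the other margins tried gave 4568 intervals within it and 84 genes brought to the warm level, and a margin of 2-fold 16293 and 276. Under a block for the replicate number, 948 genes were called for Heatin, 293 brought, 324 short and 194 opposite, but the numbers did not pair the samples: deviations of same-numbered samples correlated at -0.08 to 0.09. Scaling to total reads moved the share higher among direct calls from 52.9% to 44.6%. That share was 49.1% with TMM, 49.7% with median-of-ratios scaling, 49.6% with edgeR, 50.1% with DESeq2 and 50.0% with voom. The median of all genes stayed between -0.04 and 0.03 over the scalings. Small differences changed sign. That of AT1G27020 was -0.064 scaled to total reads, -0.024 with TMM, -0.019 with median-of-ratios scaling and with edgeR, -0.014 with DESeq2 and -0.012 with voom, and that of FAR4 was -0.029 scaled to total reads. With 1 replicate left out, AT1G27020 ranged from -0.032 to 0.040, AT1G78450 from -0.17 to 0.0055, AT3G27884 from -0.25 to 0.011, AT5G63820 from -0.21 to 0.17 and FAR4 from -0.0028 to 0.11. Of 119 named genes, 114 reversed under no alternative, and of 107 called, 11 lost the call under some. Causes were not tested. With 24 samples in the fit AT5G51790, AT5G37990 and NIT2 lost their calls (limma adjusted p = 0.251, 0.504 and 0.405), IAA32 did with a pseudocount of 0.1 (0.204), IAA5 with voom (0.104) and EM1 with DESeq2 (0.121), while GH3.12 gained one under the block (0.0856) and with voom (0.0659). With 3 replicates a group the 95% interval extended a median of 0.21 either way on the log2 scale, which limits the differences that could be resolved.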
